A study of Mus musculus with 8 samples.

Results

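The mitochondrial ribosomal protein genes of the mouse were described across cardiomyocyte libraries of LncSync-null and wild-type hearts. They were taken as every protein-coding gene named Mrpl or Mrps followed by a number. The rule uses the name alone, and it found 78 genes among the 51826 rows of the count table. All 78 passed the filter on low counts, and no library held fewer than 23 counts of any of them.

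Mitochondria carry their own ribosome, the mitoribosome, which is built in the matrix from ribosomal RNA encoded by the mitochondrial genome and from proteins encoded in the nucleus, made in the cytoplasm and imported. It translates the messenger RNAs of the mitochondrial genome, all of which encode membrane subunits of the respiratory chain and of ATP synthase, so that the heart depends on it for oxidative metabolism. Some of its proteins descend from those of bacterial ribosomes and others are found in mitochondria alone. By this division 16 members belong to the small subunit and are shared with bacteria, 10 are mitochondrial proteins of the small subunit, 30 are large-subunit proteins shared with bacteria and 21 are mitochondrial proteins of the large subunit. Mrps30 and Mrps18a carry small-subunit names but sit in the large subunit. The remaining member, Mrps36, is known as a component of the 2-oxoglutarate dehydrogenase complex and not of the ribosome.

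The libraries came from cardiomyocytes of the heart of C57BL/6 mice, at day e13.5 of embryonic life or from adults whose age is not given. Wild-type (WT) and LncSync-/- (KO) animals were compared at both ages, in 4 groups of 2 libraries each. LncSync is a long noncoding RNA, and no row of the table carries that name, so the genotype could not be checked through its own transcript. The labels describe neither the allele, nor the way cardiomyocytes were obtained, nor whether a group's 2 libraries stand for different animals. P-values therefore measure the spread between these libraries, which may be technical.

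Total counts ran from 16495084 to 20395600 per library, and the members took 0.304% to 0.616% of them. Levels are given as CPM, counts relative to the scaled size of the library. Calls used edgeR's quasi-likelihood test with p adjusted by Benjamini-Hochberg across the 16623 tested genes and a threshold of 0.05. All 16 cardiomyocyte markers were detected in every group. Their summed level was 18680 to 44290 CPM at e13.5 and 85620 to 110800 CPM in adults. Markers of red blood cell precursors summed to 20210 to 160300 CPM at e13.5 and to 16.8 to 179.6 CPM in adults, where 5 of 10 had no count. The fibroblast markers summed to 886.1 and 417.6 CPM in the e13.5 libraries numbered 1 in WT and KO, and to 3699 and 3646 CPM in those numbered 2. The part of these other cells in the results below was not tested.

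Pairs of sequences that bear on the counts of individual members are shown first, because reads from an identical stretch cannot be assigned to one gene by sequence. Transcripts of 16 members had a processed pseudogene elsewhere in the genome, taken as 95% identity or more across 50% or more of the shorter transcript. There were 20 such copies, 11 of them without a count in any library. Mrpl23 (ENSMUSG00000037772, chr7:142532686-142540747), a protein at the exit tunnel of the large subunit, has the most abundant of them. Over 507 aligned bases, 424 of them coding, Mrpl23 and Mrpl23-ps1 on chromosome 2 did not differ at any base. Coding bases 96 to 245 of Mrpl23 are printed, which in mm10 lie at chr2:74591726-74591875 in the copy, on the minus strand.
Mrpl23 and Mrpl23-ps1: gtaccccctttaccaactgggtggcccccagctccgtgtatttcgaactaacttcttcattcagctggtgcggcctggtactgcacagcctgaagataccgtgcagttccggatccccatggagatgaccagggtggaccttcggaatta

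Mrpl48 (chr7:100545751-100608301), a mitochondrial protein of the large subunit, differs from its copy Mrpl48-ps (chr4:88599175-88599810) at 12 of 636 aligned bases. Coding bases 361 to 460 hold 7 of these differences, shown in capitals, so that reads over this stretch can be told apart.
Mrpl48: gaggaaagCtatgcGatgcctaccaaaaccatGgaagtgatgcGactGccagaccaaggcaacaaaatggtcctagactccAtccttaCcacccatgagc
Mrpl48-ps: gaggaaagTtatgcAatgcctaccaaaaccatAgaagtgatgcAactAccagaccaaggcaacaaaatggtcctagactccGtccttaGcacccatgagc

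The counts of Mrpl48-ps followed the genotype, as did the mere 5 counts in all of Gm14017, a copy of Mrpl51. Mrpl48-ps had 0 counts in all 4 WT libraries. In KO it had 81 and 74 counts at e13.5 and 62 and 52 counts in adults. The KO level was 3.995 ± 1.51 CPM (SD, n = 2) at e13.5 and 3.77 ± 0.451 CPM (SD, n = 2) in adults, at least 63.5-fold and at least 39.8-fold higher than a floor of 3 counts over the WT group. By edgeR's quasi-likelihood test its adjusted p was 0.0795 at e13.5, 0.138 in adults and 0.00934 over both ages. Mrpl48 itself stood at 66.1 and 37.1 CPM in WT and 61.4 and 35.2 CPM in KO at e13.5, and at 46.3 and 43.0 CPM in WT and 57.7 and 45.7 CPM in KO adults. Its libraries overlapped between genotypes at both ages, and the level of the copy was far below that of the gene in every KO library.

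Promoters were searched for letters of transcription factors known from nuclear genes of mitochondria. The window ran from 250 bases before to 50 bases after the start in the RefSeq annotation of GRCm38.p6, and 69 of the 78 members had an entry. The core of ETS factors, CCGGAAG, stood on either strand in 26 of 69 members (37.7%) and in 18.1% of the 11795 tested genes with an entry. The YY1 letters AAGATGGC stood in 12 members (17.4%, against 4.72%), and the NRF1 core GCGCATGC in 8 members (11.6%, against 5.43%). The E-box CACGTG was in 5 members (7.25%, against 11.2%) and the letters AAGGTCA of oestrogen-related receptors in 4 (5.80%, against 3.98%). Over all 27025 genes with an entry, tested or not, the shares were 9.93%, 3.19%, 3.05%, 8.09% and 5.38% in the same order. At least 1 of the ETS, YY1 and NRF1 motifs was found in 38 members (55.1%) and in 25.7% of the tested genes. None of the 5 motifs contains another. A match describes the letters and not binding.

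The last 150 bases before the start are printed for 4 members, with all matches in capitals: Mrpl22 (chr11:58171514-58171663, plus strand) and Mrpl32 (chr13:14613038-14613187, minus strand) as examples with matches, and Mrps30 (chr13:118387253-118387402, minus strand) and Mrps6 (chr16:92058186-92058335, plus strand) as called members, described below, without any of the 5 in the whole window. In Mrpl32 the first capitals hold the NRF1 core on both strands, overlapping.
Mrpl22: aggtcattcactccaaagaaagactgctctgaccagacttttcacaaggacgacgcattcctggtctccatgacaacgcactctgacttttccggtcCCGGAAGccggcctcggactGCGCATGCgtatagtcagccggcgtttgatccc
Mrpl32: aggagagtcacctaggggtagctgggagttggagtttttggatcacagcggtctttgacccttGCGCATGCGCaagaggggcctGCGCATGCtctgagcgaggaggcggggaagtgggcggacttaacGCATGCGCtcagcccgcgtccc
Mrps30: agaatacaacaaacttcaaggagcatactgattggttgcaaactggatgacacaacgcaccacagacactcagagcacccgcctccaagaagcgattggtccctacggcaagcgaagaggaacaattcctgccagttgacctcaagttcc
Mrps6: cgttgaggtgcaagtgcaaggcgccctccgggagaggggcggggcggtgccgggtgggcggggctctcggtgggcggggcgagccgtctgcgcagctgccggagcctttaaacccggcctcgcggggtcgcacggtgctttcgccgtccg

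Levels were compared between members per kilobase of annotated exons, as the mean over all 8 libraries. Mrpl12, a protein of the stalk that recruits translation factors, was highest at 126.5 CPM per kilobase, followed by Mrpl18 (84.5), Mrpl34 (82.5), Mrps21 (76.4) and Mrpl28 (73.8 CPM per kilobase). Mrpl23 was lowest at 1.84, below Mrps10 (3.36), Mrps30 (4.19), Mrpl17 (5.51) and Mrpl1 (5.97 CPM per kilobase). The place of Mrps30 came from e13.5, where it was the lowest of all members at 1.14 CPM per kilobase. In adults it stood at 7.24 CPM per kilobase, the 16th from the bottom. The choice of length moved some members far. With the length of the transcript of longest coding sequence, chosen after the values were seen, Mrpl42 came first at 310.0 CPM per kilobase and Mrps10 rose to 26.7. The low end also holds Mrpl23, whose counts are shared with its copy. The order thus describes these annotated lengths as well as the counts.

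**Figure D1:**
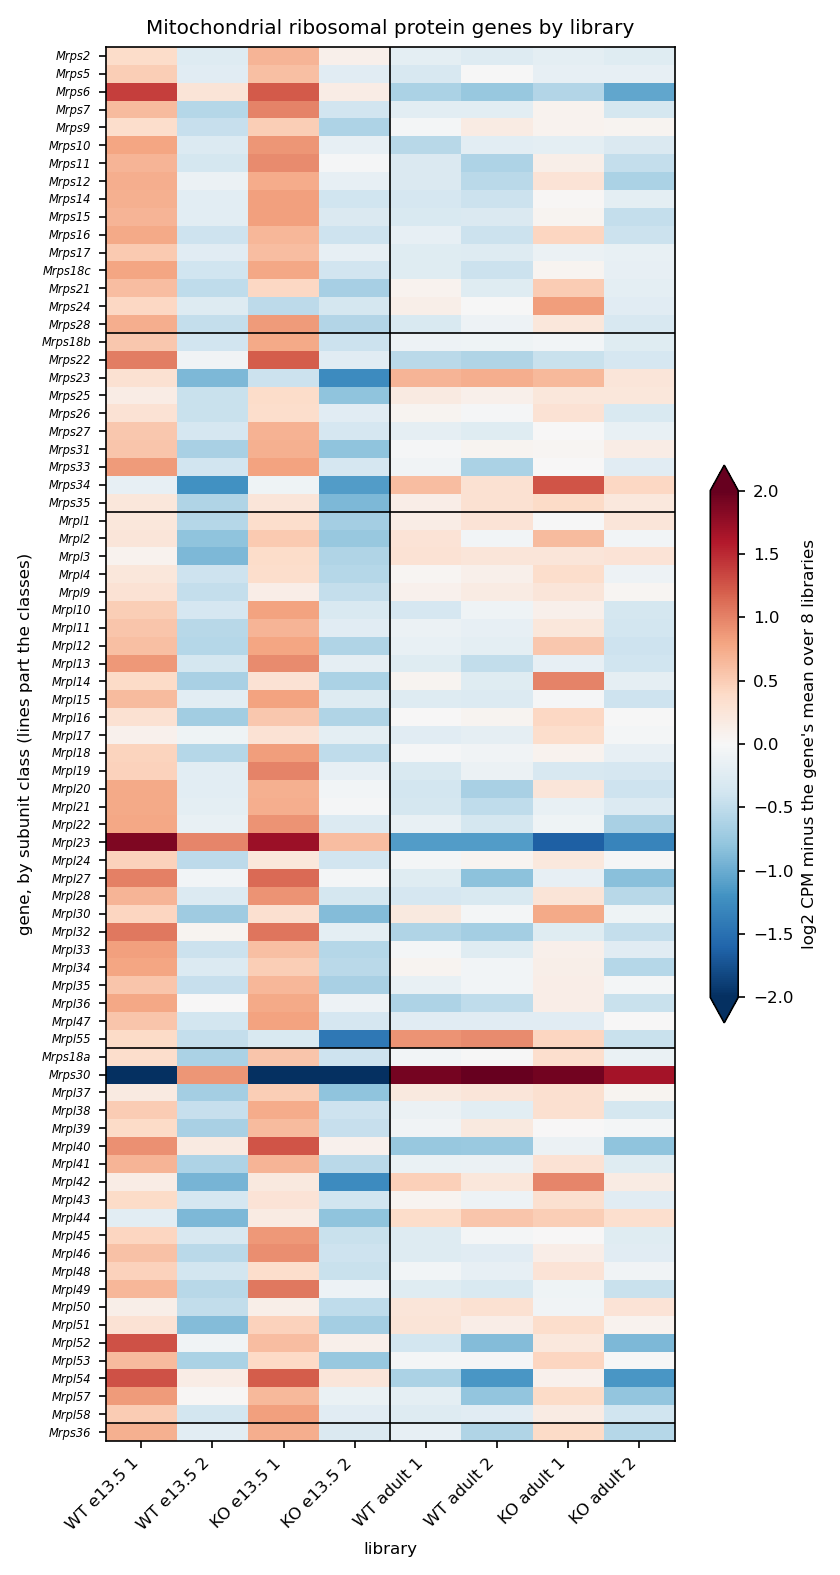
Level of each of the 78 genes (rows, in subunit classes parted by black lines) in each of the 8 libraries (columns, numbered by replicate), as log2 CPM minus the gene's own mean, in colour from blue (below) to red (above). The columns of the e13.5 libraries numbered 1 are red and those numbered 2 mostly blue in both genotypes, and Mrps30 and Mrpl23 show the widest contrast between ages.

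In CPM, the largest shared movement of the members lay within the e13.5 groups, between libraries of the same genotype. The members summed to 5786 and 2974 CPM in the WT libraries numbered 1 and 2 at e13.5, and to 6137 and 2914 CPM in those of KO. In adults they summed to 4008 and 3861 CPM in WT and to 4962 and 3607 CPM in KO. In CPM both e13.5 libraries numbered 1 thus stood above all 4 adult libraries, and both numbered 2 stood below them. This order depended on the TMM scaling, with factors of 1.44 and 1.4 in the e13.5 libraries 2 and 0.77 to 0.87 in adults. As unscaled shares of all counts, the members took 0.427% and 0.409% in those libraries 2, above the 0.304% to 0.382% of adults. The e13.5 libraries 1 held 0.616% in WT and 0.595% in KO. Member by member, the WT e13.5 library 1 was higher than library 2 for 77 of 78 genes. The median difference was 0.95 on the log2 scale of CPM plus 1. In KO it was higher for 76 of 78, with a median of 1.07. The median over all genes tested was -0.03 in WT and -0.06 in KO, and 47.9% and 46.0% of them were higher in library 1. The scaling levels the typical gene between libraries by construction. These values therefore show that the members departed from the typical gene, and not that most genes were alike. In adults library 1 was higher for 43 members in WT (median 0.04) and for 71 members in KO (median 0.39).

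The movement was of similar size in the 4 subunit classes. At e13.5 the class medians lay from 0.94 to 0.96 in WT and from 1.05 to 1.13 in KO, on the log2 scale. Mrps30 was the exception in both genotypes. It stood at 1.06 and 24.1 CPM in WT and at 2.25 and 2.81 CPM in KO, lower in library 1, and Mrps24 was the other exception in KO, with 38.7 and 43.6 CPM. Nuclear genes of the respiratory chain moved likewise, by a median of 1.09 in WT and 1.27 in KO. Genes of cytoplasmic ribosomal proteins moved by 0.69 in WT and -0.05 in KO, and the genes of mitoribosome assembly by 0.73 and 0.69. Marker lists moved between the same libraries. On the same log2 scale the median of the cardiomyocyte markers was 0.42 higher in library 1 in WT and 0.88 in KO. Of these 16 markers 10 were higher in library 1 in WT and 12 in KO. The median of red blood cell precursors was 1.11 and 2.74, and the fibroblast median was -1.44 and -2.28. Endothelial markers had -0.62 and -0.30, smooth muscle -0.98 and -1.29, and leukocytes -0.06 and -0.50. Epicardial markers had 1.265 and -0.41, and hepatocyte markers 0.25 and 0.17. The part of these lists in the members' difference was not tested. In bulk RNA fewer cells of a type and less RNA per cell cannot be told apart. The labels name the numbers as replicates only.

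**Figure D2:**
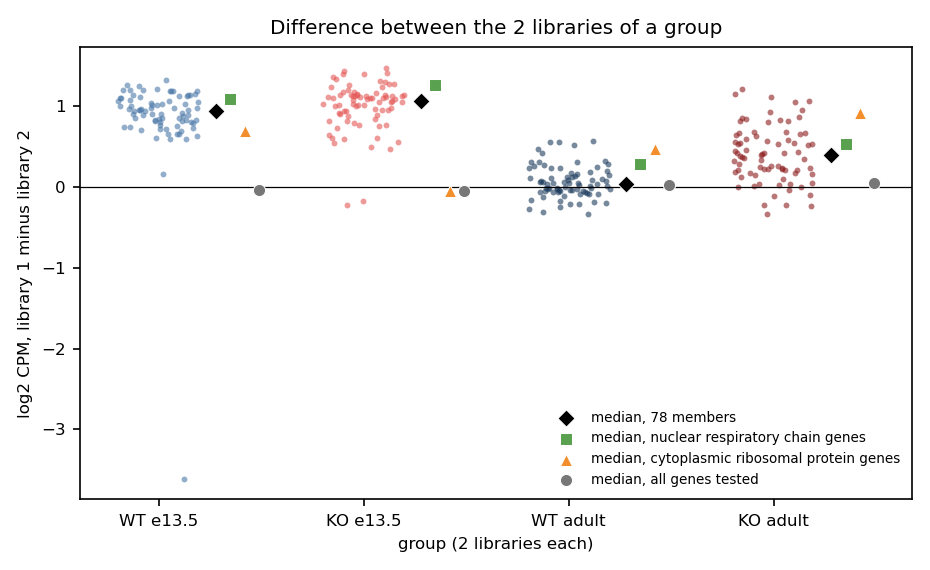
Difference in log2 of CPM plus 1 between library 1 and library 2 of each group (y axis), with 1 point per member. Beside the points are the medians of the 78 members (diamonds), nuclear respiratory chain genes (squares), cytoplasmic ribosomal protein genes (triangles) and all genes tested (circles). The members' medians are 0.95 and 1.07 at e13.5 and 0.04 and 0.39 in adults. The lone point near the bottom is Mrps30 in WT at e13.5.

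The comparison of adults with e13.5 asked how the genes differ between the embryonic and the mature heart. In WT, 0 members were higher and 3 were lower in adults, where 17.8% of all genes tested were called higher and 21.1% lower. In KO, 1 member was higher and 2 were lower, where 20.5% of all genes were called higher and 20.9% lower. The log2 fold change had a median of -0.31 over the members and -0.26 over all genes in WT, and -0.33 and -0.15 in KO. At an unadjusted p below 0.05 stood 6 of 78 members in each genotype, where 49.4% of all genes did in WT and 51.8% in KO. Mrpl23 and Mrps6 were called lower in both genotypes, Mrpl54 was called lower in WT, and Mrps30 was called higher in KO. Leaving out either WT adult library left no called member in WT, and leaving out KO adult library 1 left none in KO. In WT the count was 8 without e13.5 library 2, 1 without either KO adult library, and 2 without WT e13.5 library 1. In KO it was 5 without either WT e13.5 library or without KO e13.5 library 2, and 2 without KO e13.5 library 1, KO adult library 2 or either WT adult library.

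Mrps30, a large-subunit protein despite its name, had the largest age difference of the 78 in KO and the most positive one in WT, where that of Mrpl23 was larger (-2.60). At e13.5 it had 23 and 701 counts in the WT libraries and 36 and 71 in the KO libraries. Its level was 49.6 and 51.9 CPM in WT adults and 50.01 and 41.5 CPM in KO adults, against the 1.06, 24.1, 2.25 and 2.81 CPM given above. All 4 adult libraries were above all 4 e13.5 libraries, and WT library 2 was the one e13.5 library near the adult level. The log2 fold change was 4.17 ± 1.09 (SE) in KO with an adjusted p of 0.0138, and 2.01 ± 0.98 in WT with an adjusted p of 0.129 (edgeR). The KO call was lost without KO e13.5 library 1 (adjusted p 0.0527) or KO adult library 1 (0.0542). Without WT e13.5 library 2 the WT value was 5.59 with an adjusted p of 0.000219. The difference between the genotypes was not called, with an interaction of 2.16 ± 1.37 and an adjusted p of 1.0.

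Mrps6, a small-subunit protein shared with bacteria, stood at 104.6 and 48.1 CPM in WT and 93.8 and 44.6 CPM in KO at e13.5. In adults it stood at 26.0 and 23.9 CPM in WT and 26.8 and 19.7 CPM in KO. No adult library reached the lowest of e13.5. It fell in both genotypes, with a log2 fold change of -1.61 ± 0.53 in WT (adjusted p 0.0372) and of -1.57 ± 0.53 for KO (adjusted p 0.0383, edgeR). In WT the call was lost without e13.5 library 1 (-0.81, adjusted p 0.290) or without any one of the 4 adult libraries, and in KO without e13.5 library 1 (-0.92, adjusted p 0.242) or any one of those 4. Slc5a3, the inositol transporter gene that starts from the same locus, shares 10.4% of the exon bases of Mrps6 on the same strand.

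Mrpl54, a mitochondrial protein of the large subunit, stood at 107.2 and 48.8 CPM in WT and 102.4 and 52.3 CPM in KO at e13.5. In adults it stood at 28.6 and 19.7 CPM in WT and 46.7 and 19.6 CPM in KO. The adult libraries were all below those of e13.5, although KO adult library 1 came close to the lowest. Its log2 fold change was -1.69 ± 0.60 in WT, where it was called (adjusted p 0.0484), and -1.22 ± 0.59 in KO (adjusted p 0.120, edgeR). The WT call was lost without e13.5 library 1 (-0.88, adjusted p 0.304), without any one of the 4 adult libraries, and with median of ratios scaling (adjusted p 0.0514).

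Mrpl23 stood at 21.7 and 11.7 CPM in WT and 19.6 and 9.10 CPM in KO at e13.5, and at 2.74 and 2.76 CPM in WT and 1.91 and 2.39 CPM in KO adults. On the deposited values its log2 fold change was -2.60 ± 0.57 in WT (adjusted p 0.00678) and -2.73 ± 0.58 for KO (adjusted p 0.00535, edgeR). The identical copy Mrpl23-ps1 held 80.9% of the counts of the pair. It stood at 71.7 and 28.4 CPM in WT and 60.2 and 28.1 CPM in KO at e13.5, and at 36.0 and 34.6 CPM in WT and 53.1 and 27.1 CPM in KO adults. The share of the pair given to Mrpl23 ranged from 23.2% to 29.2% at e13.5 and from 3.47% to 8.09% in adults. The sum of both was 93.4 and 40.2 CPM in WT and 79.8 and 37.2 CPM in KO at e13.5, and 38.7 and 37.3 CPM in WT and 55.0 and 29.5 CPM in KO adults, so that the ages overlapped. With the counts of copies added to their members, an alternative chosen after the data were seen, the value for Mrpl23 was -0.81 in WT, with an adjusted p of 0.272, and -0.47 in KO, with 0.515, and neither was called. In WT the deposited call was also lost without either adult library (adjusted p 0.0685 and 0.0689), and in KO without adult library 1 (0.0512).

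**Figure D3:**
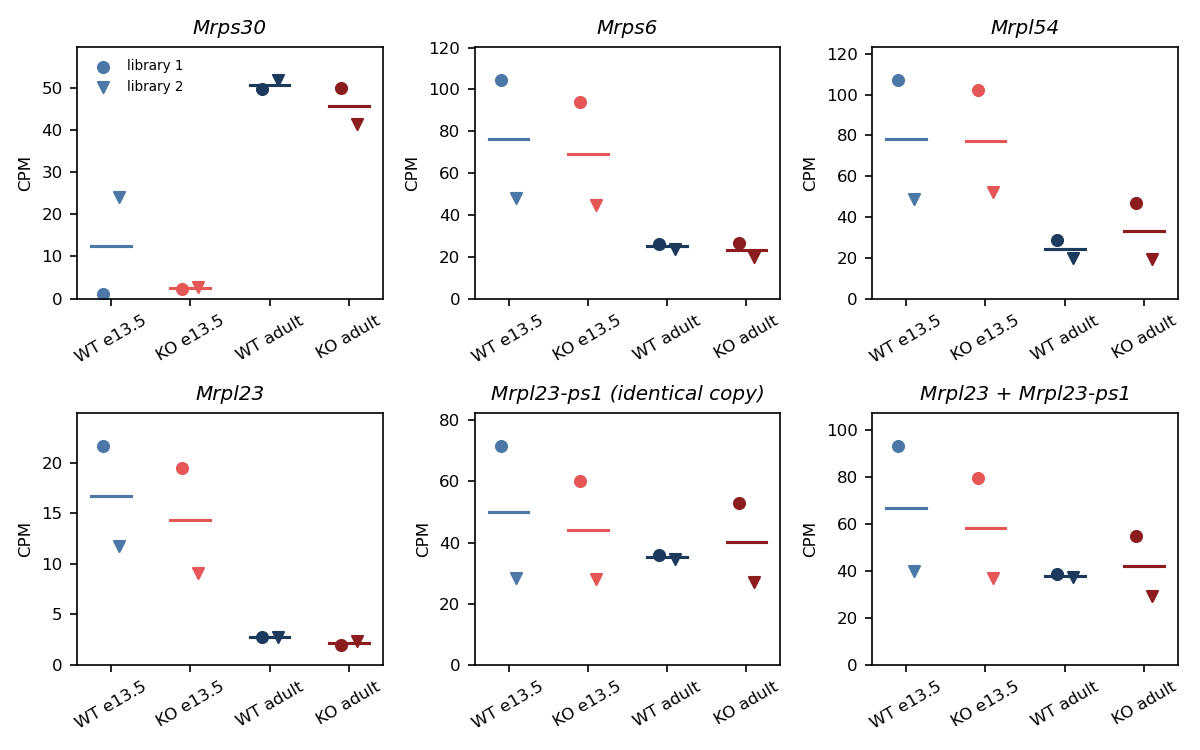
CPM (y axes, each from 0) in the 2 libraries of each group (circles for library 1, triangles for library 2, lines for the mean) of Mrps30, Mrps6, Mrpl54, Mrpl23, its identical copy Mrpl23-ps1 and the sum of the pair. Mrps30 lies between 41.5 and 51.9 CPM in adults and at or below 24.1 CPM at e13.5, and the sum of Mrpl23 and its copy overlaps between the ages.

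Because the e13.5 libraries of a genotype differed so widely, adults were also compared with the libraries of each number alone, an alternative chosen after the data were seen. A lone e13.5 library per genotype is assumed there to vary like the adult groups. Between library 1 and 2 the members' median log2 difference was 0.95 and 1.07 at e13.5 but 0.04 and 0.39 in adults. The SE of these fits are therefore likely too small and their calls too many. Against library 1, 1 member was higher and 32 were lower in WT adults, with 27.9% and 26.8% of all genes tested called higher and lower. In KO adults 1 was higher and 34 were lower, against 28.3% and 26.5% of all genes. Against library 2, 10 members were higher and 1 was lower in WT adults, where 19.9% and 17.7% of all genes were called. In KO adults 15 were higher and 2 were lower, against 22.5% and 19.8%. The members' median was -0.73 in WT and -0.84 in KO against library 1, and 0.42 and 0.39 against library 2. Under TMM scaling, the only one run for these fits, the direction of the whole set therefore turned with the e13.5 library used. Opposite signs were found for 55 members in WT and 53 in KO, and the share of all genes with opposite signs is not given.

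Called the same way against both libraries were Mrpl23 (lower) and Mrps30 (higher) in both genotypes, and Mrps6 (lower) in KO. Of all genes tested in both fits, 18.2% were called higher against both libraries and 14.7% lower in WT, and 20.5% and 16.3% in KO. Both comparisons of a genotype share its adult libraries. For Mrps30 the log2 fold change was 5.54 ± 0.42 and 1.21 ± 0.31 in WT and 4.23 ± 0.39 and 4.05 ± 0.37 in KO, against library 1 and 2. The log2 fold change of Mrps6 in KO was -2.13 ± 0.29 and -0.91 ± 0.30. Positive in both genotypes and against both libraries were 6 members, Mrpl42, Mrpl44, Mrpl55, Mrps23, Mrps30 and Mrps34. Negative throughout were 10, Mrpl21, Mrpl23, Mrpl27, Mrpl32, Mrpl36, Mrpl40, Mrpl52, Mrpl54, Mrps22 and Mrps6. For these counts by sign the shares of all genes are not given, so they cannot be set against a background. All 4 adult libraries lay above all 4 e13.5 libraries for 3 members, Mrpl44, Mrps30 and Mrps34, where 26.9% of all genes did so. They lay below for 7 members, Mrpl23, Mrpl27, Mrpl32, Mrpl40, Mrpl54, Mrps22 and Mrps6, where 32.3% of all genes did so. Both counts are below the background.

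**Figure D4:**
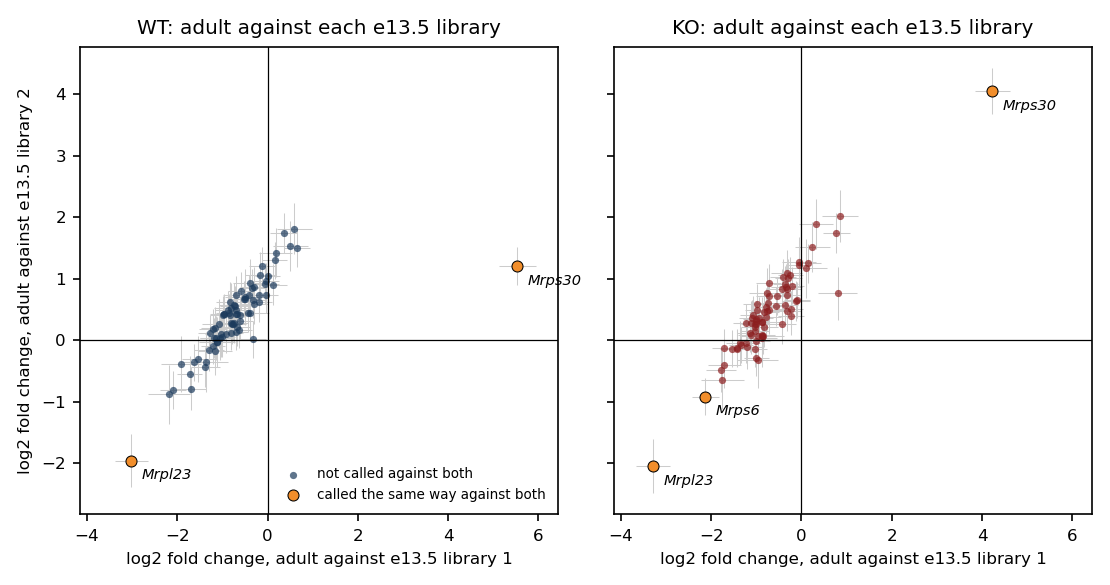
Log2 fold change of each member in adults against e13.5 library 1 (x axis) and against e13.5 library 2 (y axis), with SE bars, in WT (left) and KO (right). Orange points were called the same way against both. Most points lie at the upper left, negative against library 1 and positive against library 2. The signs were opposite for 55 members in WT and 53 in KO, and the share of all genes is not given.

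Further members at the ends of the age comparison missed the threshold. Mrps34, a small-subunit protein, stood at 48.9 and 23.6 CPM in WT and 51.6 and 25.3 CPM in KO at e13.5, and at 84.0 and 67.5 CPM in WT and 130.4 and 72.8 CPM in KO adults. Its log2 fold change was 1.06 ± 0.54 in WT (adjusted p 0.142) and 1.40 ± 0.54 for KO (adjusted p 0.0627, edgeR). Mrps34 shares 63.4% of its exon bases with Mapk8ip3 on the opposite strand and 37.0% with Nme3 on the same strand. Mapk8ip3 stood at 14.1 and 43.0 CPM in WT and 13.9 and 22.2 CPM in KO at e13.5. In adults it stood at 104.6 and 112.8 CPM in WT and 94.7 and 130.8 CPM in KO. Nme3 overlapped between the ages, with 8.75 to 25.6 CPM at e13.5 and 10.3 to 19.5 CPM in adults. The part of these genes in the counts of Mrps34 was not tested. Whether the counting used strand is not stated. In all, 33 members share exon bases with another gene, 17 of them 10% or more. Among those named here are Mrpl19 (36.0%, Gcfc2), Mrpl14 (11.2%, Tmem63b), Mrpl18 (10.1%, Tcp1) and, with less, Mrpl44 (7.66%, Wdfy1), all on the opposite strand. Mrpl44, which carries an RNase III fold near the exit tunnel, was at 33.4 and 20.8 CPM in WT and 43.4 and 22.2 CPM in KO at e13.5, and at 50.2 and 57.2 CPM in WT and 54.9 and 48.8 CPM in KO adults. Its value was 0.99 ± 0.46 in WT, with an adjusted p of 0.116. Mrps23, another small-subunit protein, had 1.25 ± 0.51 in KO with an adjusted p of 0.0745.

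By subunit class, the proteins shared with bacteria had the lower medians. In the small subunit the median log2 fold change in WT was -0.51 over the 16 shared proteins and -0.01 over the 10 mitochondrial ones. In KO these medians were -0.42 and -0.06. In the large subunit they were -0.32 over 30 shared and -0.21 over 21 mitochondrial proteins in WT, and -0.29 and -0.14 in KO. In WT 1 of the 16, 0 of the 10, 1 of the 30 and 1 of the 21 were called lower, and none higher. Of all genes 21.1% were called lower there. In KO 1 of the 16 and 1 of the 30 were called lower, where 20.9% of all genes were. There 1 of the 21 was called higher, where 20.5% of all genes were. The differences between classes were not tested.

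At the functional sites Mrpl23 was the one called member, and its call was lost when the counts of its identical copy were added. Among all genes, 21.1% were called lower with age in WT and 20.9% in KO. The stalk proteins Mrpl10, Mrpl11 and Mrpl12 summed to 418.5 and 198.0 CPM in WT and 485.1 and 202.8 CPM in KO at e13.5, and to 248.2 and 251.9 CPM in WT and 377.0 and 215.6 CPM in KO adults. In CPM the e13.5 libraries thus lay on both sides of the adult ones, and none of the 3 was called. Of the 6 proteins of the exit tunnel, where the new chain leaves toward the inner membrane, only Mrpl23 was called, and the others had log2 fold changes from -0.64 (Mrpl22) to -0.05 (Mrpl24) in WT. Mrpl45, which anchors the ribosome to the membrane, had -0.25 in WT and -0.47 in KO. Mrps12, the protein of the decoding site, had -0.78 and -0.47, with 55.7 and 31.3 CPM at e13.5 and 27.5 and 23.2 CPM in adults in WT. The paralogs Mrps18a, Mrps18b and Mrps18c, which are built into different places of the ribosome, had 0.03, -0.25 and -0.65 in WT. Mrpl58, an integral subunit that can free stalled chains, had -0.38 in WT and -0.48 in KO, and none of these passed the test.

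No member was called between KO and WT at either age. At e13.5, 0 of 78 were called by edgeR, where 0.0722% of all genes tested were, and 1 member stood at an unadjusted p below 0.05, where 2.39% of all genes did. DESeq2 also called none. The median log2 fold change was 0.04, with 49 values positive, against a median of -0.07 over all genes, so that the members' median stood 0.12 above that of all genes. Its sign rested on single libraries. The members' median was -0.56 without KO e13.5 library 1, -0.29 without WT e13.5 library 2, 0.76 without WT e13.5 library 1 and 0.50 without KO e13.5 library 2. The number of positive values was 60 to 67 under the other scalings. The libraries of the 2 genotypes did not overlap for 1 member, lower in KO, where they did not overlap for 15.4% of all genes. Within the same library number, 53 members were higher in KO between libraries 1 (median 0.11) and 37 between libraries 2 (median -0.03).

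The most negative values at e13.5 were those of Mrps30, Mrpl55 and Mrps23. Mrps30 had -2.31 ± 1.01, with an unadjusted p of 0.0458 and an adjusted p of 1.0, and its sign turned without WT e13.5 library 2 (1.28). Without WT e13.5 library 1 it was called lower, at -3.11 with an adjusted p of 0.0246, the only call of a member in KO against WT among the alternatives run. Mrpl55, a protein of the large subunit, stood at 45.9 and 25.2 CPM in WT and 28.5 and 12.98 CPM in KO. Its log2 fold change was -0.78 ± 0.53. Mrps23 stood at 89.6 and 38.6 CPM in WT and 53.8 and 30.1 CPM in KO, a value of -0.61 ± 0.51. The most positive were Mrpl49 (0.41 ± 0.54), Mrpl19 (0.35 ± 0.48) and Mrps2 (0.32 ± 0.42), each within its error of 0.

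In adults 0 of 78 were called, where 0.0481% of all genes were, and none stood at an unadjusted p below 0.05 with edgeR, where 2.27% of all genes did. DESeq2 called none. The median was 0.12, with 61 values positive, against 0.01 over all genes, and it turned to -0.12 without KO adult library 1 and was 0.28 without KO adult library 2. Both KO libraries were above both WT libraries for 13 members and below them for 4, and 27.9% of all genes did not overlap in the one or the other direction. The KO adult library 1 held the higher level for 71 of the 78 members. Against KO adult library 2 its median was also higher by 0.92 on the log2 scale for the cytoplasmic ribosomal protein genes. It was higher by 0.53 for the nuclear respiratory chain genes, by 0.92 for the fibroblast markers and by 0.85 for the endothelial markers. For the cardiomyocyte markers the median difference was -0.05, with 8 of 16 higher in library 1. Their sum was 85620 CPM against 109200 CPM. The part of these in the members' values was not tested. Mrpl14, a large-subunit protein shared with bacteria, had the most positive value, 0.60 ± 0.56, with 44.1 and 36.0 CPM in WT and 84.3 and 37.5 CPM in KO. Leaving out KO adult library 1 turned it to -0.10. Mrpl54 (0.46 ± 0.59) and Mrpl20 (0.45 ± 0.49) followed. Mrpl55 was the most negative, at 65.3 and 67.7 CPM in WT and 47.4 and 25.8 CPM in KO, both below WT, with -0.86 ± 0.53. Mrpl23 (-0.35 ± 0.56) and Mrps23 (-0.24 ± 0.50) came next.

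**Figure D5:**
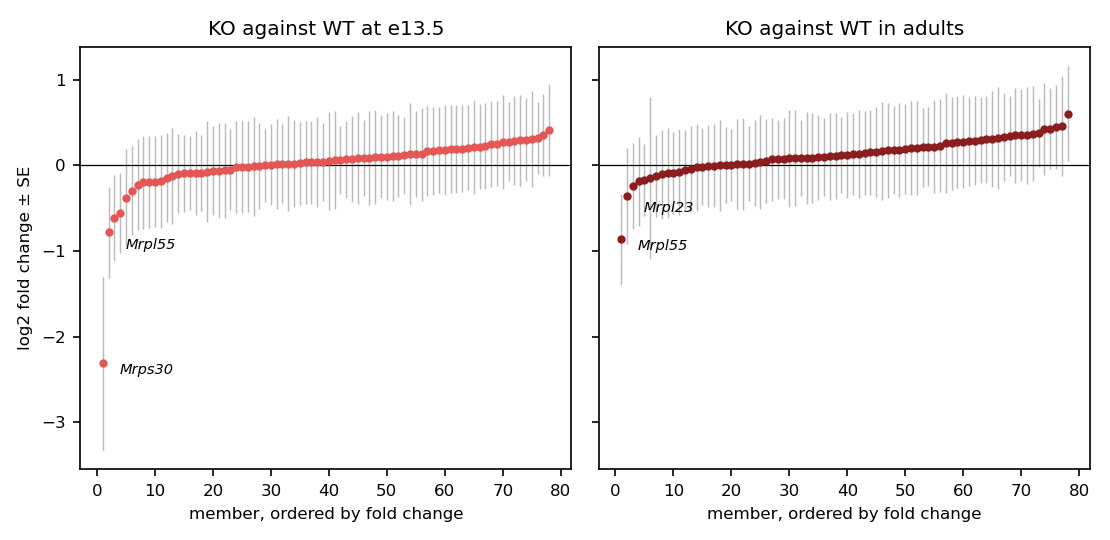
Log2 fold change of KO against WT with SE bars (y axis) for the 78 members, each panel ordered by its own values (x axis), at e13.5 (left) and in adults (right). Most bars reach across 0, and Mrps30 at e13.5, at -2.31, stands apart from the others.

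Over both ages together 0 of 78 members were called, where 0.12% of all genes were, and none stood at an unadjusted p below 0.05 with edgeR, where 2.83% of all genes did. DESeq2 called none. The median was 0.10, with 63 values positive, against -0.04 over all genes. It was -0.21 without KO e13.5 library 1, -0.083 without WT e13.5 library 2, 0.0073 without KO adult library 1, 0.34 without KO e13.5 library 2, 0.47 without WT e13.5 library 1 and 0.17 without KO adult library 2. Mrpl55 was lower in KO at both ages, with a value of -0.82 ± 0.38, an unadjusted p of 0.0549 and an adjusted p of 1.0. Mrps30 had -1.23 ± 0.69 and Mrps23 -0.43 ± 0.36. On the positive side stood Mrps11 (0.29 ± 0.37), Mrpl14 (0.27 ± 0.39) and Mrpl40 (0.26 ± 0.36). The change with age did not differ between genotypes for any member by the test of the interaction, which called 0 of 78 and 0.0% of all genes by edgeR. At an unadjusted p below 0.05 stood 0 members and 265 genes (1.59%), and DESeq2 called no member.

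The other genes of mitochondrial translation were set beside the members, from lists chosen with earlier results known. Of all genes tested, 17.8% were called higher in adults and 21.1% lower in WT, and 20.5% and 20.9% in KO. These shares are the background for each list below. The 13 messenger RNAs of the mitochondrial genome, which the mitoribosome translates, were called higher in adults for 12 in WT and 13 in KO, with median log2 fold changes of 4.42 and 4.87. They summed to 12490 to 18650 CPM at e13.5 and to 252700 to 366100 CPM in adults. The 2 ribosomal RNAs of the mitochondrial genome, the mitoribosome's own RNA, summed to 14430 to 22820 CPM at e13.5 and to 6873 to 8656 CPM in adults. The larger, mt-Rnr2, fell in WT (-1.61 ± 0.54, adjusted p 0.0396) and had -1.26 ± 0.53 in KO (adjusted p 0.0817, edgeR), and mt-Rnr1 had 1.21 ± 0.52 and 1.24 ± 0.52, without a call. Of 14 mitochondrial translation factors 4 were called higher in WT and 7 in KO and none lower, with medians of 0.98 and 1.18. Taco1, a translational activator of cytochrome c oxidase, rose by 3.15 ± 0.52 in WT and 3.43 ± 0.52 in KO, and Gfm2, which acts in recycling of the mitoribosome, by 1.61 ± 0.40 and 1.497 ± 0.39. The members and these lists share the same adult and e13.5 libraries.

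Of 20 mitochondrial aminoacyl-tRNA synthetases, which load tRNAs, 1 was higher and 1 lower in WT, and 2 were higher and 1 lower in KO. Yars2 rose by 2.18 ± 0.55 and 2.89 ± 0.57, and Ears2 fell, with -1.46 ± 0.49 and -1.65 ± 0.50, in WT and KO. None of the 22 genes for assembly of the mitoribosome and modification of its RNA was called in either genotype by edgeR, against the shares of all genes given above, and 0 stood at an unadjusted p below 0.05, with medians of 0.11 and 0.10. Of 5 mitoribosomal proteins with other names, 1 was called, Ptcd3, which rose by 1.28 ± 0.43 in WT. In KO none of the 5 was called, and their highest value was 0.83. Among 10 genes for transcription and upkeep of mitochondrial DNA 1 was higher in WT, and 2 were higher and 1 lower in KO. Lrpprc, which stabilises mitochondrial messenger RNA, rose by 3.06 ± 0.97 in KO, the highest value of the list there. The highest of the list in WT was 2.51. The test of the interaction called no gene of these lists.

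Regulators of mitochondrial biogenesis changed in both directions. Of 12, 4 were higher and 3 lower in WT, and 5 were higher and 3 lower in KO, against the shares of all genes given above. Perm1, a muscle regulator that acts with oestrogen-related receptors, rose by 7.81 ± 0.78 in WT and 8.11 ± 0.80 in KO, and Esrra, which encodes such a receptor, by 4.65 ± 0.53 and 5.13 ± 0.54. Myc, a growth factor-induced transcription factor, fell, with -5.85 ± 0.47 and -5.93 ± 0.47. Among 72 nuclear genes of the respiratory chain 1 was higher and 2 lower in WT, and 2 were higher and 2 lower in KO, with medians of 0.32 and 0.75. The cytoplasmic ribosomal protein genes had 1 of 80 tested higher and 51 lower in WT, with a median of -1.64, and 1 higher and 28 lower in KO, with a median of -1.07. In KO against WT 0 genes of these lists were called by edgeR at e13.5 or in adults, and over both ages 1 cytoplasmic ribosomal protein gene, Rpl3, was called lower (-2.33), named here after its value was seen. At an unadjusted p below 0.05 (edgeR) stood 1 translation factor, 1 regulator and 1 cytoplasmic ribosomal protein gene at e13.5, where 2.39% of all genes did. In adults 2 cytoplasmic ribosomal protein genes did so, where 2.27% of all genes did. DESeq2 called 1 cytoplasmic ribosomal protein gene lower at each age and none of the mitochondrial messenger RNAs or respiratory chain genes.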

How the data were processed

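RNA of cardiomyocytes was measured in 8 libraries. Per the labels' protocols, Smart-seq2 was applied to an input of 200 ng RNA. The deposited table holds estimated counts per gene, made with RSEM on mm10 per the submitters' processing notes. They are whole numbers with differing totals and were read as unscaled. No source used here gives the version of RSEM, the aligner, the annotation or the use of strand. GENCODE vM21 placed and named 51633 of the 51826 identifiers (99.6%).

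Counts were analysed with edgeR 4.0.16 in R 4.3.3 (limma 3.58.1, DESeq2 1.42.0), with BLAST 2.17.0 for the copies and Python 3.11.15 (matplotlib 3.10.9) for the rest. Genes were kept by filterByExpr and scaled by TMM (factors from 0.770 to 1.44). A quasi-likelihood model with 4 group means was fitted to all 8 libraries, with 4 residual and 5.74 prior degrees of freedom and a common dispersion of 0.212. Tests were two-sided. SE is the fold change divided by the root of its F statistic. The script was tested on simulated data. Named members were the called ones, the 5 highest and 5 lowest per length, the 3 largest values in each direction per comparison, and those of the functional sites or with a near-identical copy. From each other list up to 3 called genes were named. Mrpl48-ps was chosen after its values were seen. The members and lists were chosen with earlier results of these data known.

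Alternatives were the absence of a filter, a stricter one (5 CPM or more in 2 or more libraries), scaling by median of ratios or by upper quartile, TMM without mitochondrial genome, haemoglobin and ribosomal RNA genes, DESeq2, robust quasi-likelihood, only the 4 libraries of a comparison, replicate blocks, other lengths, and each library left out. Those chosen after seeing the data were the adding of pseudogene counts, each e13.5 library number alone and the length of the coding transcript. Pseudocounts did not apply to counts.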

Additional observations from a re-analysis of the deposited data

How the results depend on the processing

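The replicate numbers gave deviations correlated at 0.681 between WT and KO at e13.5 and at 0.363 in adults, but from -0.0608 to 0.258 across ages over all 16623 genes, and were not taken as pairs. With a replicate block over all 8 libraries 8 members were called in adults against e13.5 in WT and 9 in KO, and with the block at e13.5 alone 17 and 18. Of all genes 45.8% and 48.6% were called in the first and 57.0% and 58.9% in the second, against 38.9% and 41.4% without a block. It called none between genotypes. Against the e13.5 libraries numbered 1 the counts were 33 in WT and 35 in KO, and against those numbered 2 they were 11 and 17. Leaving out each library in turn gave 0 to 8 calls in WT and 0 to 5 in KO, 0 to 1 in KO against WT at e13.5, and 0 in the 3 other comparisons. The remaining alternatives kept each count within 1.5 times.

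Scaling moved the median of all genes by 0.12 (median of ratios) in KO against WT at e13.5, and by -0.13 in WT and -0.20 in KO (upper quartile) in adults against e13.5. The members' median less that of all genes was 0.11 to 0.14 in the first and -0.06 to -0.10 and -0.18 to -0.23 in the others, over the 4 scalings. Over left-out libraries it ran from -0.44 to 0.73, from -0.59 to 0.58 and from -0.80 to 0.57, so that its sign rested on single libraries, and without a filter it was 0.32 in WT with age. Signs of uncalled values in KO against WT turned when 1 library was left out. At e13.5 the range over left-out libraries was -0.34 to 0.89 for Mrpl19, -0.29 to 1.31 for Mrpl49 and -0.0050 to 0.82 for Mrps2 (lowest without KO library 1 for each), -1.10 to 0.28 for Mrps23 (highest without WT library 1) and -3.11 to 1.28 for Mrps30 (highest without WT library 2). Without WT library 2, Mrpl49 had -0.03. In adults the range was -0.10 to 1.07 for Mrpl14 and -0.30 to 0.95 for Mrpl54, lowest without KO library 1. Over both ages it was -0.078 to 0.64 for Mrpl14 (lowest without KO adult library 1), -0.092 to 0.54 for Mrpl40 (lowest without KO e13.5 library 1), -0.67 to 0.0069 for Mrps23 (highest without WT e13.5 library 1) and -1.64 to 0.55 for Mrps30 (highest without WT e13.5 library 2). With the e13.5 libraries numbered 1 alone Mrps30 had 1.14 at e13.5 and 0.49 over both ages, and with copies added Mrpl23 had 0.15 in adults. The cause was not tested.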

Other observations

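H19, near Mrpl23, and Slc5a3, which overlaps Mrps6, were called lower in adults in both genotypes. Of all genes tested, 21.1% were called lower in WT and 20.9% in KO. Other neighbouring genes are not given. H19, the imprinted noncoding RNA gene next to Mrpl23 on chromosome 7, stood at 922.2 and 695.0 CPM in WT and 1064 and 561.3 CPM in KO at e13.5, and at 8.38 and 8.27 CPM in WT and 36.2 and 16.2 CPM in KO adults. Its log2 fold change was -6.60 ± 0.67 in WT (adjusted p 0.000278) and -4.96 ± 0.62 for KO (adjusted p 0.000449, edgeR). In adults both KO libraries were above both WT libraries, a value of 1.65 ± 0.54 with an unadjusted p of 0.0129 and an adjusted p of 1.0.

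Slc5a3, which shares exon bases with Mrps6, had -2.47 ± 0.83 in WT (adjusted p 0.0401) and -2.72 ± 0.85 for KO (adjusted p 0.0290, edgeR). At e13.5 it stood at 9.22 and 51.2 CPM in WT and 11.6 and 19.9 CPM in KO, so that library 2 was the higher one in both genotypes, the opposite order to that of Mrps6. Both genes were chosen after their values were seen.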
